A study of Mus musculus with 39 samples.

Results

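The comparison is between GC1-SPG cells that carried a short hairpin RNA against Kdm6a and GC1-SPG cells that carried a scrambled hairpin (shScr). GC1-SPG, or GC-1, is a mouse cell line whose labels call it spermatogonia-derived. The libraries were chosen by the number in the names of the deposited files: 3 libraries with the number 17 against 3 shScr libraries, 6 of the 39 samples of the series. The number is read here as that of a hairpin, which no label states. The remaining GC-1 libraries, 1 with the number 62 and 2 with the number 86, also carried hairpins against Kdm6a and served as a further comparison. The rest of the series measured RNA and chromatin in mouse testis, from control males (Kdm6a fl/y; Cre-), from males with Kdm6a deleted by Ddx4-Cre, and from their descendants.

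The sample titles part the knockdown libraries differently. They give the letter A to hairpin 17 replicates 2 and 3 and to the hairpin 62 library, and the letter B to hairpin 17 replicate 1 and to both hairpin 86 libraries. Replicate numbers below are those in the titles for shScr and in the file names for the knockdown libraries. All groups share the line, and no label states whether the libraries came from separate cultures or clones, so the p-values measure the spread between these libraries only, which may be technical.

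KDM6A, also called UTX, is encoded on the X chromosome and removes methyl groups from lysine 27 of histone H3, a mark that Polycomb repressive complex 2 writes on silenced genes. It also works as a partner of the KMT2C and KMT2D methyltransferases at enhancers, a role that does not need its enzymatic activity. A short hairpin RNA is processed in the cell into a small RNA that guides the RNA-induced silencing complex to matching transcripts. Through its seed region such a small RNA can also lower other transcripts with partial matches, which is why knockdown studies use several hairpins against a gene and a scrambled control.

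RNA was measured by polyA RNA-seq as estimated read counts per transcript. The shScr libraries held 27739951, 30799743 and 29391586 estimated counts and the hairpin 17 libraries 29888592, 30771554 and 31063609. Transcripts above 0 numbered 62721 to 64701 in shScr and 63184 to 64938 with hairpin 17, so depth and detection overlapped between the groups. Transcript IDs were not paired with gene names here. The level of Kdm6a, the check of the knockdown itself, was therefore not read, germ-cell and other cell-type markers were not checked in the line, and every result below is for a transcript under its Ensembl ID. Hairpin sequences were not used here.

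Over all tested transcripts, the 6 libraries differed little as wholes. CPM denotes counts scaled to a common library total. Log2 CPM, taken across the tested transcripts (not independent of each other), correlated with r from 0.8995 to 0.9027 between shScr libraries and from 0.9015 to 0.9038 between hairpin 17 libraries. Between the groups r ran from 0.8938 to 0.9047, a range that spans the values within them. For transcripts with a mean of at least 20 CPM the values were 0.9704 to 0.9736 within shScr, 0.9608 to 0.9756 within hairpin 17 and 0.9482 to 0.9669 between the groups. At that level hairpin 17 replicate 1 correlated with shScr replicate 1 at 0.9662, above its values with hairpin 17 replicates 2 and 3 (0.9614 and 0.9608). The other same-numbered pairs of hairpin 17 and shScr libraries had 0.9669 (replicate 2) and 0.9627 (replicate 3). Differently numbered libraries of these groups correlated at 0.9482 to 0.9604, below every value within a group.

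The question of the comparison is which transcripts differ in GC-1 cells given hairpin 17. Few passed the test, and the number depended on the fit. By edgeR's quasi-likelihood test with the libraries unpaired, 12 of 55961 transcripts passed an adjusted p under 0.05 (0.0214% of those tested). Of these, 3 were higher (0.00536%) and 9 lower (0.0161%) with hairpin 17. The 9 lower transcripts had log2 fold changes of -1.12 to -0.73 and the higher ones 0.54, 0.67 and 2.90. The median log2 fold change over all tested transcripts was -0.0032. All 12 had their 3 hairpin 17 libraries outside the range of the 3 shScr libraries, as did 13.6% of tested transcripts (6.67% above and 6.9% below). At an unadjusted p under 0.05, 3889 transcripts (6.95%) differed, 1863 higher (3.33%) and 2026 lower (3.62%).

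With same-numbered libraries treated as pairs and the same filter on low counts, the 12 calls did not pass. Calls and adjusted p-values below are from fits without pairs unless a block is named, because the planned main fit had none. With the replicate number as a block, the edgeR count was 0, while 4925 transcripts had an unadjusted p under 0.05. The adjusted p-values of the 12 then ran from 0.0528 to 0.0625, just above the threshold, and their log2 fold changes were nearly the same, such as 2.91 for ENSMUST00000139685.8 and -1.07 for ENSMUST00000067925.8. Fitted on the 6 libraries of the comparison alone, without hairpins 62 and 86, edgeR called 1 transcript, which was one of the 12. The 4 named transcripts then missed the threshold, with adjusted p-values of 0.0515 for ENSMUST00000139685.8, 0.0753 for ENSMUST00000020343.9, 0.0758 for ENSMUST00000045562.6 and 0.0515 for ENSMUST00000067925.8.

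**Figure D1:**
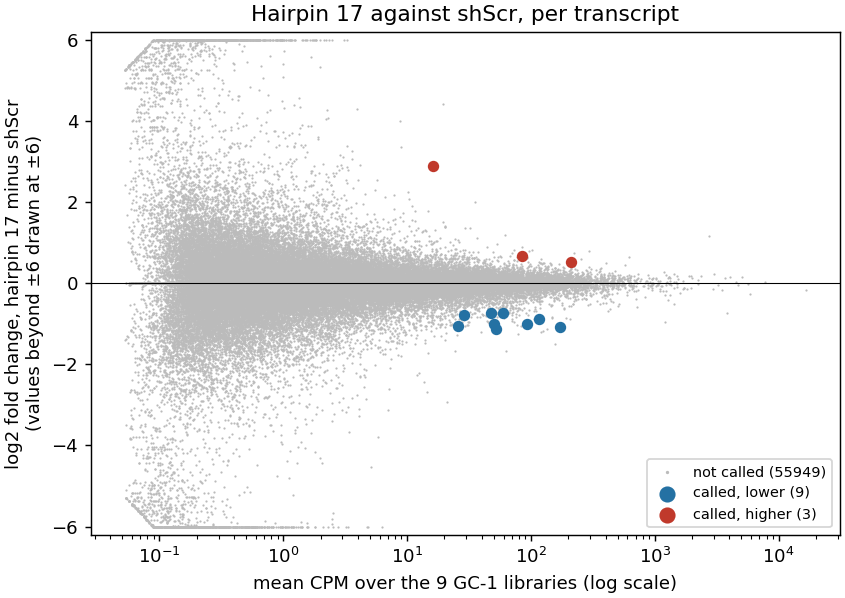
Log2 fold change of hairpin 17 against shScr (vertical axis) by mean CPM over the 9 GC-1 libraries (horizontal log axis), 1 point per tested transcript. The 12 called transcripts, 3 higher and 9 lower, lie at 16.2 to 212 CPM, where the cloud of the other transcripts is narrow.

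Among the higher transcripts, ENSMUST00000139685.8 (2051 bases long) had 2.16, 3.01 and 3.12 CPM in shScr replicates 1 to 3 and 18.6, 21.9 and 21.5 CPM in hairpin 17 replicates 1 to 3. It was low in every shScr library and high in every hairpin 17 library, without overlap. The means were 2.76 ± 0.528 CPM (SD, n = 3) and 20.7 ± 1.77 CPM (n = 3), a log2 fold change of 2.90 (SE 0.19, edgeR adjusted p 0.0174). Behind the lowest of these levels lay 57.8 estimated counts and behind the highest hairpin 17 level 696.

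ENSMUST00000020343.9 (4602 bases) had 64.4, 61.0 and 65.9 CPM in shScr and 104, 98.1 and 102 CPM with hairpin 17. Its groups were tight and apart, at 63.8 ± 2.48 CPM (SD, n = 3) and 101 ± 3.02 CPM (n = 3). The log2 fold change was 0.67 (SE 0.06, edgeR adjusted p 0.0414). The remaining higher transcript stood at 187 ± 2.76 CPM in shScr and 272 ± 7.09 CPM with hairpin 17, a log2 fold change of 0.54.

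Among the lower transcripts, ENSMUST00000045562.6 (4798 bases) had 74.2, 62.9 and 60.7 CPM in shScr and 32.8, 29.5 and 29.0 CPM with hairpin 17. The shScr libraries spread more than the hairpin 17 libraries, and the highest hairpin 17 library lay far below the lowest shScr library. The means were 65.9 ± 7.24 CPM (SD, n = 3) and 30.4 ± 2.05 CPM (n = 3), with a log2 fold change of -1.12 (SE 0.10, edgeR adjusted p 0.0314).

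ENSMUST00000067925.8 (2628 bases) had 217, 204 and 190 CPM in shScr and 103, 90.3 and 97.8 CPM with hairpin 17, again without overlap. Its means were 204 ± 13.9 CPM (SD, n = 3) and 97.1 ± 6.57 CPM (n = 3), a log2 fold change of -1.07 (SE 0.08, edgeR adjusted p 0.0239). The 7 other lower transcripts had shScr means from 31.5 to 142 CPM and hairpin 17 means from 15.2 to 76.9 CPM. Their log2 fold changes ran from -1.05 to -0.73, and the smallest adjusted p of the whole comparison, 0.00893, belonged to one of them, at 106 ± 1.04 CPM in shScr and 52.9 ± 1.69 CPM with hairpin 17.

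**Figure D2:**
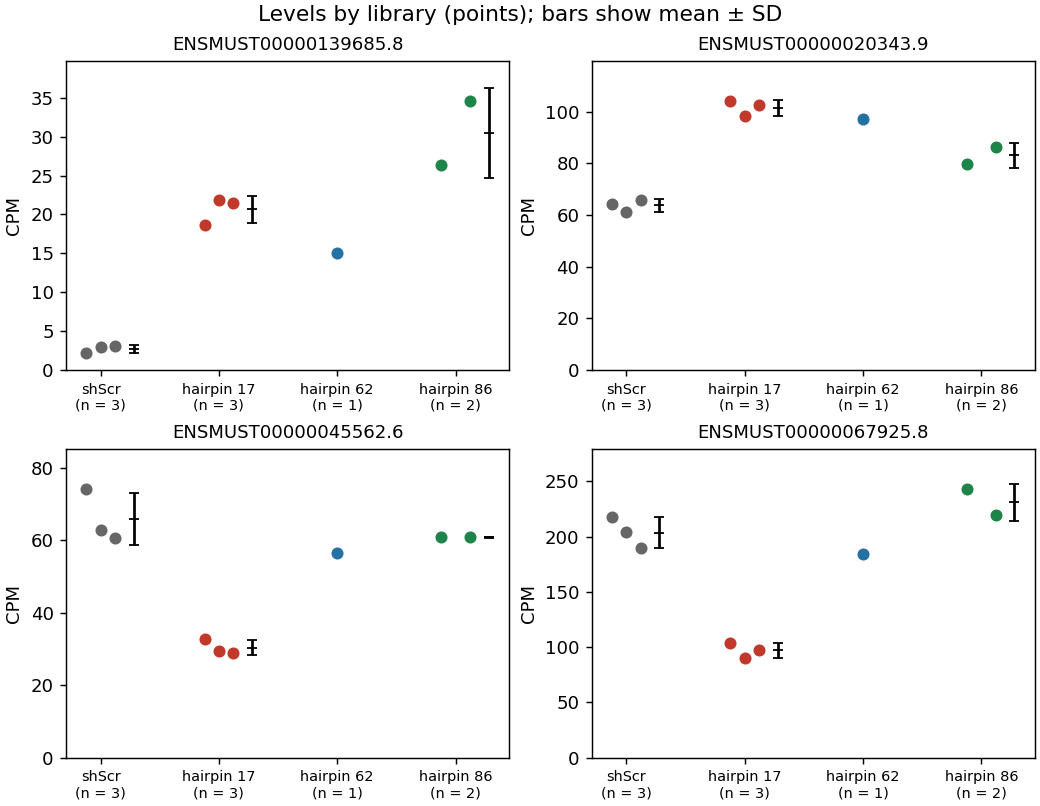
CPM (vertical axes, from 0) of the 4 named transcripts in each GC-1 library (points) by group, with mean ± SD as bars where a group has more than 1 library. The upper transcripts are higher in every knockdown library than in shScr, and the lower ones sit at 29.0 to 32.8 CPM and 90.3 to 103 CPM with hairpin 17.

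The number of calls also rested on single libraries. By edgeR, leaving out shScr replicate 1, 2 or 3, hairpin 17 replicate 1 or 2, or hairpin 86 replicate 3 gave 0 calls, with 3199, 3495, 3358, 4221, 3318 and 3902 transcripts at an unadjusted p under 0.05. The tested transcripts in these fits numbered 55025 to 55380. Leaving out hairpin 17 replicate 3 or hairpin 86 replicate 2 gave 2 calls, and leaving out the hairpin 62 library gave 21. In each of these 9 fits all 12 transcripts had the same sign and an unadjusted p under 0.05. In all 12 the hairpin 17 and shScr libraries did not overlap. Leaving out a library could therefore not turn the sign. The 12 were also chosen for small p-values in these same libraries. Neither the kept sign nor the unadjusted p under 0.05 is evidence of stability. DESeq2 called 826 of the 50772 transcripts to which it gave an adjusted p-value (1.63%), 403 higher and 423 lower. All 12 were among the 826. With the libraries grouped by the titles, letter A against shScr gave 3 calls, none of them among the 12. In that grouping 6 of the 12 had an unadjusted p under 0.05. The median ratio of their log2 fold changes to those with hairpin 17 was 0.70.

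The error of a fold change depended on the level of the transcript. The median SE of the log2 fold change was 1.10 for the 25875 tested transcripts under 1 CPM, 0.405 at 1 to 5 CPM, 0.209 at 5 to 20 CPM, 0.111 at 20 to 100 CPM and 0.078 at 100 CPM and over. No transcript under 5 CPM was called, 1 of 8086 was called at 5 to 20 CPM, 8 of 6404 at 20 to 100 CPM and 3 of 2024 at 100 CPM and over. The share of transcripts whose 3 hairpin 17 libraries did not overlap the 3 shScr libraries rose from 9.33% under 1 CPM through 12.4%, 16.97% and 24.4% to 27.9% at 100 CPM and over. At 100 CPM and over, 385 of these transcripts lay above shScr and 179 below it. At 1 to 5 CPM, 741 lay above and 941 below.

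**Figure D3:**
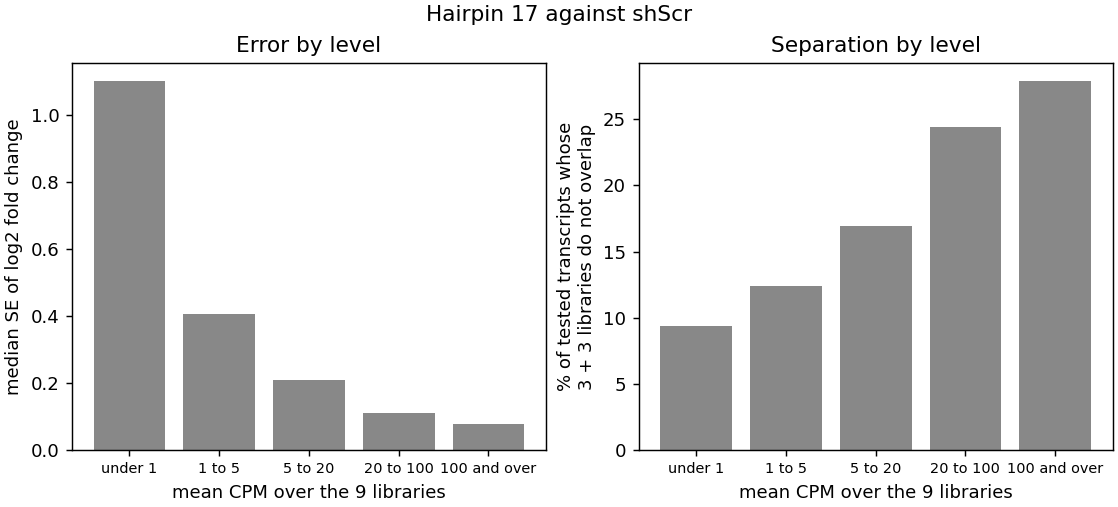
Median SE of the log2 fold change (left) and the percentage of tested transcripts whose hairpin 17 and shScr libraries do not overlap (right), in 5 classes of mean CPM, for hairpin 17 against shScr. The error falls from 1.10 to 0.078 and the percentage rises from 9.33 to 27.9 with the level.

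With the test limited to the 16509 transcripts with a mean of at least 5 CPM, a limit chosen after seeing the data, edgeR called 228 (1.38%). Of these, 81 were higher (0.491%) and 147 lower (0.89%) with hairpin 17, and all 12 transcripts above were among them. With the replicate block as well, the count was 560 (3.39%), 219 higher and 341 lower. All 12 passed there, with edgeR adjusted p-values of at most 0.0148. The 12 had means of 16.2 CPM or more, so the limit kept every one of them. It also lowered the number of tests from 55961 to 16509, which makes the adjustment milder. That the 12 passed is therefore no further support for them. Changes of at least 1 on the log2 scale were found in 32 of the 147 lower and in 5 of the 81 higher transcripts. The lower transcripts had a median log2 fold change of -0.70, with quartiles of -0.955 and -0.539, and the higher ones a median of 0.524, with quartiles of 0.386 and 0.672. Their median lengths were 3690 and 4020 bases, against 2860 bases for all 16509 tested. On the TPM scale, which accounts for transcript length, their median levels were 23.8 and 33.0, against 14.1 for all tested. The error falls with the level, and the called transcripts were not matched to the others in level. Nothing is therefore read from the medians of length and TPM.

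Whether hairpin 17 differed from the other hairpins against Kdm6a was tested directly, with the mean over the hairpin 62 and 86 libraries in place of shScr. By edgeR, 4 of 55961 transcripts were called (0.00715%), 3 lower and 1 higher with hairpin 17, and all 4 were among the 12 called against shScr. At an unadjusted p under 0.05, 3366 transcripts (6.01%) differed. DESeq2 called 619 of the 49107 transcripts to which it gave an adjusted p-value here, with the opposite balance of 399 higher and 220 lower. Both comparisons use the hairpin 17 libraries, which chose the 12, so this is no independent support for them. The count fell to 0 when shScr was left out of the fit (2959 of 53373 at an unadjusted p under 0.05) and without hairpin 17 replicate 2 (3091 of 55025). It was 1 without any one shScr library, hairpin 17 replicate 1 or hairpin 86 replicate 2, and 2 without hairpin 17 replicate 3 or hairpin 86 replicate 3. It was 6 without the hairpin 62 library. With the replicate block 6 transcripts were called, 3 of the 4 among them.

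ENSMUST00000067925.8 was one of the 4. It had 184 CPM in the hairpin 62 library and 243 and 219 CPM in the hairpin 86 libraries, around the shScr range, while every hairpin 17 library was at 103 CPM or less. Hairpin 17 was lower than these hairpins by a log2 fold change of -1.14 (95% interval -1.33 to -0.96, edgeR adjusted p 0.0211). The call was lost with shScr left out of the fit (adjusted p 0.316) and without any single library other than hairpin 62 (0.0607 to 0.159), with log2 fold changes of -1.19 to -1.09. For ENSMUST00000045562.6 the other hairpins gave 56.5, 60.9 and 60.8 CPM, also far above hairpin 17. The difference was -0.97 (-1.19 to -0.74), and its edgeR adjusted p of 0.0617 missed the threshold. Its adjusted p was 0.0493 with the replicate block, just past the threshold, and 0.316 with shScr left out of the fit. Without single libraries it was 0.0607 to 0.210. It passed with DESeq2 (5.05e-13), without a filter on low counts (0.0350), with hairpins 62 and 86 merged (0.0189) and at 5 CPM and over without and with the block (0.0109 and 0.0124), and it missed with RLE size factors (0.0743).

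The named higher transcripts stood differently. ENSMUST00000139685.8 had 15.1 CPM with hairpin 62 and 26.3 and 34.5 CPM with hairpin 86, all well above the 3.12 CPM of the highest shScr library. Hairpin 17 differed from these by -0.22 on the log2 scale (95% interval -0.62 to 0.18, edgeR adjusted p 0.945), an interval that includes 0. ENSMUST00000020343.9 had 97.2 CPM with hairpin 62 and 79.7 and 86.5 CPM with hairpin 86, between shScr and hairpin 17. The difference from hairpin 17 was 0.21 (0.07 to 0.36, edgeR adjusted p 0.606), an interval above 0 although the adjusted p missed the threshold. The remaining higher transcript had -0.09 with hairpins 62 and 86 against shScr. It was called between the hairpins, higher with hairpin 17 by 0.625 (edgeR adjusted p 0.0211). The 9 lower transcripts ran from -0.61 to 0.17 with hairpins 62 and 86 against shScr, so the named ones do not stand for all.

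Over the 9 lower transcripts the median log2 fold change was -0.99 with hairpin 17 and -0.14 with hairpins 62 and 86, each against the same shScr libraries. Every one of the 9 was lower in all 3 hairpin 17 libraries than in any hairpin 62 or 86 library, as were 5.36% of all tested transcripts. The 9 were chosen for low values in the same hairpin 17 libraries, so nothing is read from this count or from the medians. For the 3 higher transcripts these medians were 0.67 and 0.46, and their single values with hairpins 62 and 86 were 3.12, 0.46 and -0.09. The 228 transcripts at 5 CPM and over were chosen in the same way, and their values are a description only. The 147 lower ones had a median of -0.70 with hairpin 17 and -0.215 with the other hairpins, and 34 of them were called between hairpin 17 and the other hairpins. The 81 higher ones had medians of 0.524 and 0.407, and 2 of them were called. Of all 16509 transcripts, 52 were called in that direct comparison (0.315%).

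**Figure D4:**
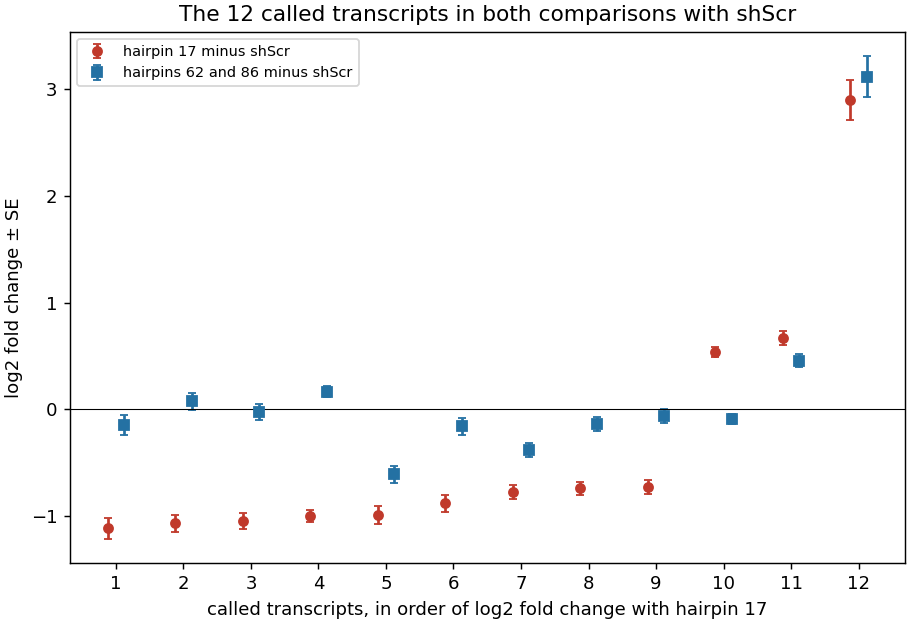
Log2 fold change ± SE (vertical axis) of the 12 called transcripts, ordered by their value with hairpin 17, for hairpin 17 against shScr (circles) and hairpins 62 and 86 against the same shScr libraries (squares). The lower transcripts sit between -1.12 and -0.73 with hairpin 17, while for hairpins 62 and 86 they range from -0.61 to 0.17.

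All 12 transcripts were also quantified in whole testis, in 7 control libraries and in 3 libraries from males whose Kdm6a was deleted by Ddx4-Cre, a recombinase driven by a germ-cell promoter (cKO). Levels of GC-1 cells and testis were scaled separately per library, and testis holds many cell types, so that fewer cells of a type and less RNA per cell cannot be told apart there. The median level in control testis ran from 0.817 to 122 TPM, and 9 of the 12 were higher in the mean of the shScr GC-1 libraries than in any control testis library, as were 42.8% of the 55306 tested transcripts matched in testis. The 12 had means of 16.2 CPM or more in GC-1 cells, while 25875 of all tested transcripts lay under 1 CPM. The shares are thus not of transcripts at like levels, and nothing is read from them. ENSMUST00000067925.8 had 140 to 153 TPM in shScr and 67.7 to 73.9 TPM with hairpin 17. In testis it had 39.4 to 50.0 TPM in controls 1 to 4 and 59.6 to 62.1 TPM in controls 5 to 7 (median 50.0 over all 7). ENSMUST00000045562.6 had 20.8 to 24.1 TPM in shScr and 9.76 to 10.8 TPM with hairpin 17. In testis it had 2.65 to 2.88 TPM in controls 1 to 4 and 3.15 to 3.60 TPM in controls 5 to 7 (median 2.88 over all 7).

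Levels in cKO testis were set beside those of the controls. ENSMUST00000067925.8 had 56.9, 59.1 and 60.7 TPM in cKO, against 62.1, 60.9 and 59.6 TPM in controls 5 to 7, which share the transcript set of the cKO files. ENSMUST00000045562.6 had 3.25, 3.49 and 3.55 TPM in cKO against 3.15, 3.47 and 3.60 TPM in these controls. Both groups overlapped in each transcript. For 2 of the 12 the cKO libraries lay above controls 5 to 7, and both were among the lower ones in GC-1 cells. Their cKO levels of 19.3 to 19.7 TPM and 9.50 to 9.79 TPM lay within those of controls 1 to 4. These were 18.9 to 23.6 TPM and 9.14 to 10.2 TPM, in files with another transcript set. For 0 of the 12 did all 3 cKO libraries lie below controls 5 to 7. Of the 53605 transcripts that could be compared, 7.97% lay above and 6.14% below in the same way, so that a count of 0 or 2 among 12 is near the background. No test of cKO against control testis was run on these levels.

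**Figure D5:**
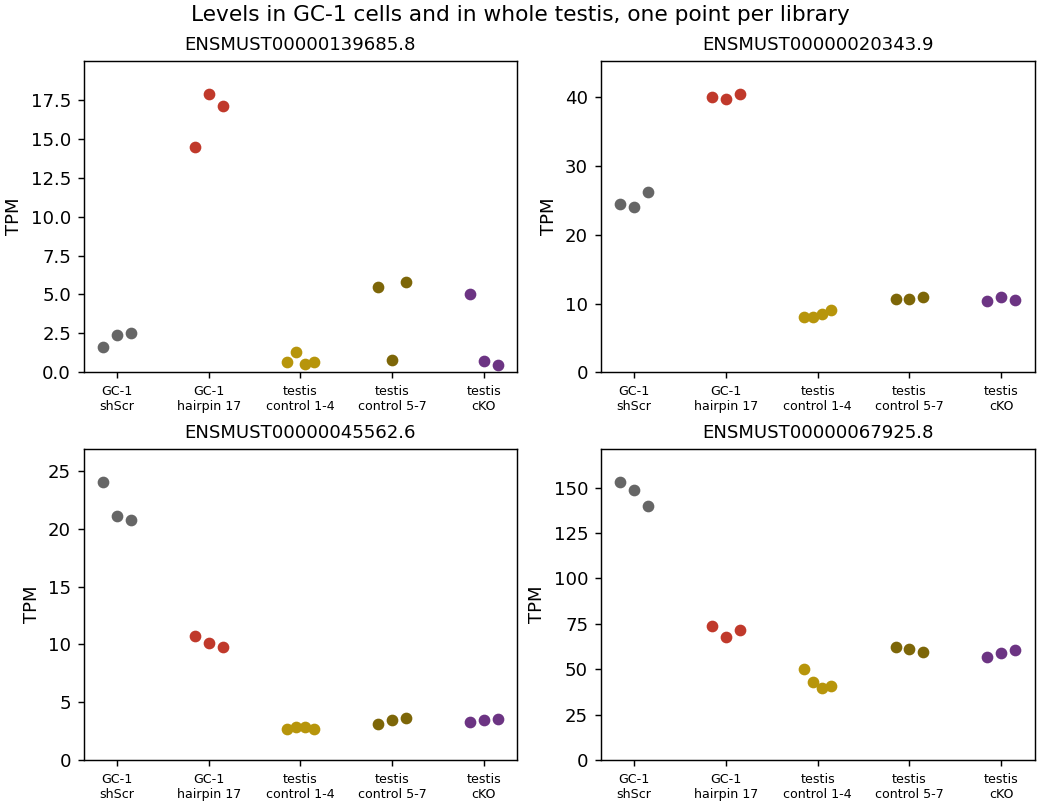
TPM (vertical axes, from 0) of the 4 named transcripts, 1 point per library, in GC-1 cells with shScr or hairpin 17, in testis controls 1 to 4 and 5 to 7, and in cKO testis. The hairpin 17 points of ENSMUST00000067925.8 at 67.7 to 73.9 TPM lie between those of shScr and testis, and the cKO points overlap those of controls 5 to 7 in every panel.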

How the data were processed

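Estimated counts and TPM per transcript are the authors' deposited values, per the file headers. The submitters' processing notes name kallisto 0.45.0 and the builds mm39 and mm10, with no role for each build. The estimated counts carry no scaling between libraries; the TPM were scaled by effective length. Transcript lengths and effective lengths are other columns of the deposited files. Read-sharing between isoforms can shift estimates: 0 of the 12 called transcripts, and 1207 of 55961 tested (2.16%), had whole counts (within 0.001) in all 9 GC-1 libraries.

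The planned sums per gene were replaced by a test per transcript, because the sources used here do not pair transcript IDs with genes; the gene lists and the Kdm6a check were left out. Counts were rounded and fitted over all 9 libraries in 4 groups (3 shScr, 3 hairpin 17, 1 hairpin 62, 2 hairpin 86) with edgeR 4.0.16 (R 4.3.3), TMM, filterByExpr and Benjamini-Hochberg adjustment; the lone hairpin 62 library was assumed to vary like the others. Hairpins 62 and 86 were averaged over libraries. SEs were derived from the test statistic. DESeq2 1.42.0 was an alternative. The replicate numbers, from titles (shScr) and file names (knockdowns), were checked for pairing by correlating deviations from group means. Same-numbered shScr and hairpin 17 libraries gave r of 0.398, 0.308 and 0.228 at 20 CPM and over, and 0.049, 0.0435 and 0.0149 over all tested transcripts; each library correlated best with its own number in both sets. The numbers were taken as pairs from the values at 20 CPM and over, decided before the blocked calls were seen, although over all transcripts they are under 0.1. The numbers of the hairpin 62 and 86 libraries were not checked in this way, although the block covered all 9 libraries. At 20 CPM and over the hairpin 62 library, numbered 1, correlated at 0.958, 0.965 and 0.960 with shScr replicates 1, 2 and 3. Hairpin 86 replicate 2 had 0.9503, 0.9655 and 0.9557 with these shScr libraries, and hairpin 86 replicate 3 had 0.9577, 0.9637 and 0.9721. Both hairpin 86 libraries were thus highest with the shScr library of their own number, and the hairpin 62 library was not. Correlations used log2 CPM with a prior count of 2. Testis transcripts were matched by ID without version and by length. Without gene names, the rule named the 2 transcripts with the largest change in each direction among those called, not overlapping and with a mean of at least 1 CPM. The comparison and its lists were chosen with earlier results of these data known.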

Additional observations from a re-analysis of the deposited data

Results flagged for a closer look

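In 4 transcripts the level differed between hairpin 17 and the other hairpins against Kdm6a by the direct edgeR test (adjusted p under 0.05). All 4 were among the 12 called against shScr with the same hairpin 17 libraries. The calls depended on the fit: 0 of the 4 remained with shScr left out or without hairpin 17 replicate 2. ENSMUST00000067925.8 differed by a log2 fold change of -1.14. Of the other 3, which are not named, the lower ones differed by -1.02 and -1.17 and the higher one by 0.62. Against shScr, hairpins 62 and 86 differed by log2 fold changes of -0.03 to 0.17 in the 3 lower transcripts and by -0.09 in the higher one. Groups of 3 libraries were not tested for outliers. In the 7 control testis libraries, Dixon's test for a single outlying library found none in the 12 transcripts. It does not detect a pair of high libraries, such as controls 5 and 7 for ENSMUST00000139685.8. Nor does it detect a split between controls 1 to 4 and 5 to 7, such as that of ENSMUST00000067925.8.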

How the results depend on the processing

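Against shScr, edgeR called 12 transcripts. The count was 826 with DESeq2, 30 without a filter on low counts, 71 with hairpins 62 and 86 merged, 1 with only the 6 libraries compared, and 3 with groups by titles. Leaving out 1 library gave 0 to 21. Added after seeing the data, a mean of at least 5 CPM gave 228. Against hairpins 62 and 86, with 4 calls, these counts were 619 (DESeq2), 12 (no filter), 15 (merged) and 0 (only the libraries compared), 0 to 6 with 1 library left out, and 52 at 5 CPM. The cause of these shifts was not tested. The number of transcripts tested against shScr also changed, from 55961 to 85848 (no filter) and 46649 (merged, and by titles). It was 43150 with 6 libraries, 49662 without hairpin 62 and 16509 at 5 CPM. For DESeq2, 50772 is the number left with an adjusted p-value, not the number fitted. With RLE size factors the counts were 11 and 4. The length correction and the fit per transcript as an alternative apply to gene sums and were not run.

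With the replicate block, edgeR called 0 transcripts against shScr (smallest adjusted p 0.0528) and 6 against hairpins 62 and 86. With the block the counts were 560 and 86 at 5 CPM, and 0 against shScr with only the 6 libraries (4317 at an unadjusted p under 0.05). In the fit with 12 calls, transcripts under 5 CPM had the largest errors and none of them was called; calls by level were not counted for the other fits.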

Other observations

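ENSMUST00000139685.8 split the testis libraries within groups. It had 5.51 and 5.77 TPM in controls 5 and 7 and 5.00 TPM in cKO 1, against 0.567 to 1.31 TPM in the 5 other controls and 0.711 and 0.472 TPM in cKO 2 and 3.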
